A study of Homo sapiens with 6 samples.

Results

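The miR-200 family was followed in Huh7 cells, a human hepatoma cell line, through 7 of the 2588 mature miRNAs counted. The members were taken by name as the products of the miR-200b, miR-200a and miR-429 cluster and of the miR-200c and miR-141 cluster, namely hsa-miR-200a-3p, hsa-miR-200b-3p, hsa-miR-429, hsa-miR-141-3p and hsa-miR-200c-3p, which are the guide strands, and hsa-miR-200a-5p and hsa-miR-200b-5p, which come from the opposite arms. Cells received a plasmid for hsa_circ_0098181, a circular RNA (overexpression group, 3 samples), or a control plasmid (3 samples), both with Lipofectamine, and RNA was taken after 48 h. Plasmid delivery was transient in both groups, in a single line, and the labels do not say whether the replicates were separate cultures, so that the p-values measure the spread between these samples, which may be technical. Values of single samples are given in the order of replicates 1 to 3. Library totals were 7978507, 8469016 and 8289232 counts with hsa_circ_0098181, against 10786295, 8677214 and 7144798 counts with the control plasmid.

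The miR-200 family is known for holding epithelial cells in the epithelial state. Its guide strands repress the transcription factors ZEB1 and ZEB2, which repress E-cadherin and, in turn, the genes of the family, so that the miRNAs and the factors keep each other down. Loss of the family is a hallmark of the epithelial-mesenchymal transition, and in the liver the family is best known from bile duct epithelium and from tumours.

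The sequences show how the family splits by seed, the stretch of bases 2 to 8 by which a miRNA finds its targets. They were taken from RefSeq (GRCh38.p14), where all 7 members were matched, and are written 5′ to 3′ with the seed in capitals. The guide strands with the first seed were
miR-200a-3p: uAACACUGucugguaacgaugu
miR-141-3p: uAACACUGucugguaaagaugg
and those with the second were
miR-200b-3p: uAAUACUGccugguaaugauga
miR-200c-3p: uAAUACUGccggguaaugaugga
miR-429: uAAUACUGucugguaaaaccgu
while the opposite arms shared a seed of their own,
miR-200a-5p: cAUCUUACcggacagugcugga
miR-200b-5p: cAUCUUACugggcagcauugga
and the opposite arm of miR-200c, which is not among the members, had another,
miR-200c-5p: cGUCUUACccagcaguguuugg
The entry for miR-141-5p was missing.

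The seeds of the guide strands differed by C4U, with positions counted from 1 at the 5′ end and the base of miR-200a-3p given first. Outside the seed, miR-200a-3p and miR-141-3p differed by C17A and U22G alone and were the same at 20 of 22 positions. The pair miR-200b-3p and miR-200c-3p also had 20 of 22 positions in common, with U11G and A22G, and miR-200c-3p was 1 base longer. miR-429 stood farther off, with 6 of 22 positions different from miR-200b-3p and 7 of 22 from miR-200c-3p. Within both closest pairs the partners lie on different chromosomes. How reads that match several miRNAs were assigned is not given in the sources used here, so that the split between such near-identical partners is uncertain. Among the 2281 miRNAs of the count table with a RefSeq sequence, no further miRNA had the seed of any member, and the seed of miR-200c-5p was found in miR-550a-3p (4.32 TPM, mean of 6 samples) besides.

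The 5 precursors lie in a pair of clusters on the plus strand. In GRCh38.p14, MIR200B (1167104 to 1167198), MIR200A (1167863 to 1167952) and MIR429 (1169005 to 1169087) follow each other within 1984 bases of chromosome 1. RefSeq places them inside the long non-coding RNA gene MIR200BHG (1162877 to 1170338), whereas in GENCODE release 29 they overlap no other gene. On chromosome 12, MIR200C (6963699 to 6963766) and MIR141 (6964097 to 6964191) lie within 493 bases. Both fall inside the non-coding gene MIR200CHG (6963246 to 6964447), and neither overlaps an exon of it in GENCODE release 29, which makes them intronic there.

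Control replicate 3 stood apart from the other control samples. Over the 152 miRNAs with a mean of at least 100 CPM, after scaling by edgeR's TMM factors, which correct the library size for composition, the median absolute log2 difference was 0.049 between control replicates 1 and 2, and 0.21 between either of them and control replicate 3. From control replicate 3 to overexpression replicates 1, 2 and 3 it was 0.12, 0.19 and 0.16, and from the other control samples to the overexpression samples it was 0.13 to 0.19. The fold changes of the members and of the lists of other miRNAs are also given without this library.

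The levels of the family spanned a wide range. In TPM, which here is the count scaled to CPM by the sample's total with no correction for length (the members have 22 or 23 bases), miR-200a-3p led with a mean of 1322 over the 6 samples and ranked at place 55 of all miRNAs counted. It was followed by miR-200b-3p (505 TPM, place 84), miR-429 (342 TPM, place 100), miR-141-3p (51.8 TPM, place 189), miR-200c-3p (34.3 TPM, place 206), miR-200b-5p (17.2 TPM, place 259) and miR-200a-5p (12.6 TPM, place 288). This order was the same in all 6 samples, and the TPM ranges over the samples did not overlap between any neighbours. The closest neighbours were the opposite arms, with miR-200b-5p from 14.5 to 23.9 TPM and miR-200a-5p from 11.7 to 14.0 TPM. The levels compare read counts, which also carry the ligation and amplification bias of each sequence.

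Nearly all counts of the guide strands were assigned to miRNAs of chromosome 1, within the uncertain split between near-identical partners. miR-200a-3p, miR-200b-3p and miR-429 together made up 96.3%, 96.1% and 96.2% of the counts of the 5 guide strands with hsa_circ_0098181, against 96.3%, 96.1% and 96.1% with the control plasmid. The samples of both groups overlapped in this share. By seed, the share of miR-200a-3p and miR-141-3p in the 5 guide strands was 60.1%, 60.7% and 59.1% with hsa_circ_0098181, against 62.5%, 63.0% and 59.8% with the control plasmid. Control replicates 1 and 2 were highest and control replicate 3 lay among the overexpression samples, so that the groups overlapped with it and did not without it.

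The 7 members together held 0.225%, 0.210% and 0.213% of all counts with hsa_circ_0098181, against 0.240%, 0.246% and 0.238% with the control plasmid. On this scale every overexpression sample was below every control sample. After TMM scaling the sums were 2255, 2286 and 2199 CPM with hsa_circ_0098181, against 2386, 2386 and 2185 CPM with the control plasmid, and the groups overlapped, because control replicate 3 was the lowest of all; without it they did not. By seed, the sum of miR-200b-3p, miR-200c-3p and miR-429 after TMM scaling was 888, 887 and 888 CPM with hsa_circ_0098181, against 884, 873 and 865 CPM with the control plasmid. Every overexpression sample was above every control sample in this sum, whereas in TPM (885, 816 and 859 against 888, 900 and 941) every one was below. The sum of miR-200a-3p and miR-141-3p after TMM scaling was 1337, 1368 and 1283 CPM against 1474, 1486 and 1285 CPM, and the groups overlapped by overexpression replicates 1 and 2 and control replicate 3, while in TPM (1332, 1259 and 1241 against 1481, 1533 and 1398) every overexpression sample was below. None of these sums was tested. Among the single miRNAs tested, every overexpression sample was below every control sample in TPM for 90 of 552 (16.3%). After TMM scaling every one was above for 49 of 552 (8.88%), and no member alone was among them. How often sums of other miRNAs separate the groups was not computed. In bulk samples, fewer cells that express the family and less of its RNA per cell cannot be told apart.

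Among the members with the first seed, miR-200a-3p, the most abundant of the family, was counted 10220, 10257 and 9891 times with hsa_circ_0098181, against 15383, 12798 and 9618 times with the control plasmid. In TPM these counts were 1281, 1211 and 1193 against 1426, 1475 and 1346, and after TMM scaling 1286, 1316 and 1234 CPM against 1420, 1430 and 1238 CPM. In TPM all control samples were above all overexpression samples, while after TMM scaling control replicate 3 fell to the level of overexpression replicate 3 and the groups overlapped. The log2 fold change (overexpression minus control) was -0.092 with a standard error of 0.090 and a 95% confidence interval from -0.28 to 0.10 (edgeR's quasi-likelihood test, adjusted p = 0.721 by the Benjamini-Hochberg method over all miRNAs tested). Without control replicate 3 it was -0.18 with a standard error of 0.071 (unadjusted p = 0.0172, adjusted p = 0.121, edgeR), and with the library size alone it was -0.20 (unadjusted p = 0.0361, adjusted p = 0.353, edgeR). The smallest differences were -0.057 without overexpression replicate 3 and -0.062 without control replicate 2. Over all 15 alternatives its adjusted p from these tests was between 0.121 and 0.908.

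miR-141-3p, which has the same seed and comes from chromosome 12, was found at 51.4, 47.9 and 47.7 TPM with hsa_circ_0098181, against 54.6, 58.0 and 51.4 TPM with the control plasmid. Control replicate 3 lay just below overexpression replicate 1, and the groups overlapped by this pair of samples. The log2 fold change came to -0.046 (standard error 0.11, edgeR quasi-likelihood, adjusted p = 0.874) and -0.13 without control replicate 3 (adjusted p = 0.464, same test). When overexpression replicate 3 was left out it came to -0.013, and when control replicate 2 was left out to -0.0035, and the adjusted p from the tests of all 15 alternatives was between 0.464 and 0.999.

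Among the members with the second seed, miR-200b-3p, the first miRNA of the chromosome 1 cluster, was found at 523, 459 and 491 TPM with hsa_circ_0098181, against 493, 507 and 560 TPM with the control plasmid. Control replicate 3 was the highest sample and the groups overlapped. The log2 fold change came to 0.033 (standard error 0.090, interval at 95% confidence -0.16 to 0.23, edgeR quasi-likelihood, adjusted p = 0.902). Without control replicate 3 it was 0.038, and with the library size alone it turned to -0.082. Leaving out each sample in turn gave values from 0.0077, without overexpression replicate 1, to 0.046, without overexpression replicate 3.

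miR-429, the last miRNA of the same cluster, was found at 332, 326 and 336 TPM with hsa_circ_0098181, against 362, 356 and 340 TPM with the control plasmid. In TPM the groups did not overlap, and after TMM scaling they did, with control replicate 1 the highest sample (360 CPM) and control replicate 3 the lowest (313 CPM). The log2 fold change came to 0.024 (standard error 0.098, edgeR quasi-likelihood, adjusted p = 0.925) and turned to -0.051 without control replicate 3 (adjusted p = 0.778, same test) and to -0.090 with the library size alone.

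miR-200c-3p, the chromosome 12 partner of miR-200b-3p and the least abundant guide strand, was counted 241, 271 and 263 times with hsa_circ_0098181, against 362, 327 and 291 times with the control plasmid, or 30.2, 32.0 and 31.7 TPM against 33.6, 37.7 and 40.7 TPM. In TPM the control samples were all above the overexpression samples, and after TMM scaling overexpression replicate 2 (34.8 CPM) passed control replicate 1 (33.4 CPM). The log2 fold change came to -0.13 (standard error 0.12, interval at 95% confidence -0.38 to 0.12, edgeR quasi-likelihood, adjusted p = 0.698), and -0.12 without control replicate 3. It was between -0.25, with the library size alone, and -0.086, without overexpression replicate 1.

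The opposite arms had fewer counts and wider errors. miR-200a-5p was counted 106, 99 and 101 times with hsa_circ_0098181, against 133, 103 and 100 times with the control plasmid, and miR-200b-5p 125, 142 and 120 times against 173, 139 and 171 times. For both the groups overlapped in TPM, and for miR-200b-5p control replicate 3 (23.9 TPM) lay above all other samples, which reached 16.8 TPM at most. The log2 fold changes were 0.077 (standard error 0.14) for miR-200a-5p and -0.12 (standard error 0.16) for miR-200b-5p, and the edgeR quasi-likelihood fit gave adjusted p of 0.835 and 0.798. Without control replicate 3 the value of miR-200b-5p turned to 0.030 and that of miR-200a-5p was 0.094, and with the library size alone miR-200a-5p turned to -0.036. When each sample in turn was left out, miR-200a-5p was between 0.031, without control replicate 2, and 0.10, without overexpression replicate 3.

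All 7 members passed the filter on low counts, and edgeR's quasi-likelihood test called 0 of the 7 at an adjusted p under 0.05, as it called 0 of the 552 miRNAs tested (0%). At an unadjusted p under 0.05 there were 0 of 7 members and 50 of 552 miRNAs (9.06%) with edgeR, 0 and 41 with DESeq2, and 0 and 52 with limma, and the latter tools also called 0 miRNAs each at an adjusted p under 0.05. Among all miRNAs the 50 split into 24 higher and 26 lower, and those with the library size alone into 1 higher and 69 lower, where miR-200a-3p was among the 69. Without control replicate 3, edgeR gave 119 of 565 miRNAs (21.1%) and 1 of 7 members, miR-200a-3p, an unadjusted p under 0.05. At an adjusted p under 0.05 edgeR then called 56 of 565 miRNAs (9.91%), of which 18 were higher and 38 lower, and 0 of 7 members. With TMM factors 4 members were lower and 3 higher in the overexpression group, with a median log2 fold change of -0.046 beside 0.0038 over all miRNAs tested. With the library size alone all 7 were lower with a median of -0.16, and the median over all miRNAs tested moved to -0.11. Relative to that median 4 members were lower and 3 higher. In TPM, every overexpression sample was below every control sample for 3 of 7 members (miR-200a-3p, miR-200c-3p and miR-429) and for 90 of 552 miRNAs tested (16.3%), and every overexpression sample was above every control sample for 0 of 7 members and 11 of 552 miRNAs (1.99%). After TMM scaling the overexpression samples were all below for 0 of 7 members and 36 of 552 miRNAs (6.52%), and all above for 0 of 7 members and 49 of 552 miRNAs (8.88%). The 95% confidence intervals of the 5 guide strands reached from 0.768-fold (miR-200c-3p) to 1.18-fold (miR-429).

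The balance of the arms was measured within each sample, where it does not depend on the library size. miR-200a-3p outnumbered miR-200a-5p by 96.4, 104 and 97.9 to 1 with hsa_circ_0098181, against 116, 124 and 96.2 to 1 with the control plasmid. Control replicates 1 and 2 were highest and control replicate 3 was the lowest of all samples, so that the groups overlapped through this library. With 0.5 added to each count, the log2 ratio was 6.63 ± 0.054 (SD, n = 3) with hsa_circ_0098181 and 6.79 ± 0.19 (SD, n = 3) with the control plasmid, which differ by -0.17 (exact two-sided permutation test, p = 0.4, the smallest p possible for 3 against 3 being 0.1). Without control replicate 3 the difference was -0.27, which is over 1.5 times as large (exact permutation test, p = 0.1, the smallest that 3 samples against 2 can give).

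For miR-200b the guide strand was less dominant, with 33.4, 27.4 and 33.9 counts of miR-200b-3p for 1 of miR-200b-5p with hsa_circ_0098181, against 30.7, 31.6 and 23.4 with the control plasmid. Control replicate 3 was again the lowest sample, and the groups overlapped. The log2 ratio was 4.97 ± 0.17 (SD, n = 3) against 4.82 ± 0.24 (SD, n = 3), which differ by 0.15 (exact two-sided permutation test, p = 0.5), and without control replicate 3 the difference was 0.0099 (exact permutation test, p = 1). The other opposite arms were rarer still. miR-141-5p was counted 21 to 59 times per sample (log2 fold change -0.22, standard error 0.28, edgeR quasi-likelihood, adjusted p = 0.781). Its log2 fold change was -0.34 without control replicate 3, and between -0.47 without overexpression replicate 3 and 0.017 without control replicate 1. miR-200c-5p was counted 4, 17 and 7 times with hsa_circ_0098181, against 12, 4 and 14 times with the control plasmid and did not pass the filter. Its pooled level was 1.13 TPM in either group, with exact Poisson intervals (95%) of 0.752 to 1.64 and 0.761 to 1.61 TPM, which cover counting error only. Single samples ranged from 0.461 to 2.01 TPM. In the edgeR fits that kept it, the log2 fold change was 0.083 (standard error 0.48) without the filter, 0.46 without overexpression replicate 1 and -0.26 without control replicate 2. No direction was taken from these values.

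The counts of the chromosome 1 guide strands did not keep a fixed proportion across the samples. Whether this arose in the cells or in the libraries was not tested. The ratio of miR-200a-3p to miR-200b-3p was 2.45, 2.64 and 2.43 with hsa_circ_0098181, against 2.90, 2.91 and 2.40 with the control plasmid. Control replicates 1 and 2 were above all other samples and control replicate 3 was the lowest of the 6, so that the groups overlapped with it and did not without it. The ratio of miR-200a-3p to miR-429 was 3.86, 3.72 and 3.55 with hsa_circ_0098181, against 3.94, 4.14 and 3.96 with the control plasmid, with all control samples above all overexpression samples. Of the 10 ratios among the 5 guide strands, 2 had groups that did not overlap, and these ratios share their members and were not tested. How often ratios of other miRNAs separate the groups was not computed, and the count was not read as a result about the family.

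The other ratio whose groups did not overlap joined miR-200a-3p and miR-141-3p, from different chromosomes, and was singled out after its values were seen. It was 24.9, 25.3 and 25.0 with hsa_circ_0098181, against 26.1, 25.4 and 26.2 with the control plasmid. All samples lay close together, control replicate 3 included, and the coefficient of variation over the 6 samples was 2.13%, beside 4.67% to 9.93% for the other 9 ratios. Counting error alone in this ratio was between 4.20% and 5.32% per sample, and so above this variation in all 6 samples. The ratio is the least variable of 10 and was picked for that, and whether its variation is smaller than chance would give was not tested. Of the other 9 ratios, that of miR-429 to miR-141-3p varied by 4.67%, which was below the counting error in 5 of 6 samples (4.42% to 5.60%), and the other 8 varied by more than the counting error in every sample. The ratio of miR-200b-3p to miR-200c-3p had a coefficient of variation of 9.50%, above its counting error of 5.43% to 6.63% per sample. Counting error leaves out the spread between separate samples, and no conclusion was drawn from these comparisons.

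The likeness of other miRNAs to miR-200a-3p was described by Pearson's r of log2 CPM after TMM scaling over the 6 samples, among 307 other miRNAs tested with a mean of at least 10 CPM. The 5 most alike were miR-582-3p (r = 0.98, Spearman's rho = 0.94), miR-148a-3p (r = 0.97, rho = 0.89), miR-100-3p (r = 0.96, rho = 0.83), miR-34a-3p (r = 0.95, rho = 0.77) and miR-141-3p (r = 0.95, rho = 0.94). The samples share their libraries and scaling factors, and control replicates 1 and 2 were the highest in miR-200a-3p. Without these 2 samples, which were farthest from the median, r was 0.99, 0.81, 0.77, 0.59 and 0.89 in the same order. The other members ranked lower, with miR-429 at place 69 (r = 0.59), miR-200c-3p at place 138 (r = 0.14), miR-200b-5p at place 211 (r = -0.38), miR-200a-5p at place 266 (r = -0.74) and miR-200b-3p, the neighbour in the same cluster, at place 275 (r = -0.79). Without the same samples r was 0.51, -0.26, -0.082, 0.25 and -0.28 in the same order, so that miR-200c-3p and miR-200a-5p changed sign.

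The label of the cells was checked against miRNAs of hepatocytes. All 5 of the list (miR-122-5p, miR-192-5p, miR-194-5p, miR-148a-3p and miR-885-5p) were detected in every sample, and their sum was 42.2%, 43.4% and 42.7% of the counts with hsa_circ_0098181, against 43.5%, 41.9% and 40.3% with the control plasmid. miR-122-5p, the main miRNA of hepatocytes, was the most abundant miRNA of all and outnumbered miR-200a-3p by 251, 280 and 279 to 1 with hsa_circ_0098181, against 228, 209 and 227 to 1 with the control plasmid. In this ratio all overexpression samples were above all control samples, control replicate 3 included, and the difference was not tested. How often the ratios of other miRNAs to miR-200a-3p separate the groups was not computed. edgeR called 0 of the 5. At an unadjusted p under 0.05 there was 1, miR-122-5p with a log2 fold change of 0.19, beside 50 of 552 miRNAs tested (9.06%). With TMM factors 3 were higher and 2 lower, with a median log2 fold change of 0.10 beside 0.0038 over all miRNAs tested. With the library size alone 2 were higher and 3 lower (median -0.015 beside -0.11). For miR-122-5p the value was 0.13 when control replicate 3 was left out and 0.080 with the library size alone, and its unadjusted p came to 0.138 with the library size alone, 0.0662 with DESeq2 and 0.0640 in edgeR without overexpression replicate 2. The median of the 5 was 0.036 without control replicate 3 (beside -0.0013 over all miRNAs tested), and 0.0056 to 0.17 when each sample in turn was left out. With control replicate 3 left out, edgeR called miR-148a-3p (log2 fold change -0.21, adjusted p = 0.00658, beside -0.11 and adjusted p = 0.617 with all samples and adjusted p of 0.00658 to 0.865 over all 15 alternatives). An unadjusted p under 0.05 was then found for 3 of the 5, with miR-122-5p higher (0.13) and miR-194-5p (-0.15) and miR-148a-3p lower, beside 119 of 565 miRNAs (21.1%).

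Other miRNAs of epithelia were taken from a list. Of its 8 names, 7 were in the count table, and of these only miR-375, known from endocrine and gut epithelium, passed the filter, at 39.5, 39.4 and 51.2 TPM with hsa_circ_0098181, against 40.9, 41.4 and 43.4 TPM with the control plasmid. Its mean of 42.6 TPM lay between those of miR-141-3p and miR-200c-3p. Overexpression replicate 3 was the highest and the groups overlapped (log2 fold change 0.17, standard error 0.12, edgeR quasi-likelihood, adjusted p = 0.653). The log2 fold change was 0.045 without that sample and 0.051 with the library size alone, and was 0.14 without control replicate 3. miR-205-5p, a miRNA of stratified epithelium that also represses ZEB1 and ZEB2, had 1 to 7 counts per sample, miR-203a-3p, of skin, 3 to 6 and miR-31-5p 2 to 7, while miR-205-3p and miR-203b-5p had 0 in all samples. The sum of the list was 40.6, 40.6 and 52.4 TPM with hsa_circ_0098181, against 41.7, 42.8 and 46.2 TPM with the control plasmid.

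Markers of other cells were checked because stromal, endothelial or blood cells would carry other miRNAs. Of the 11 on the list, 8 passed the filter, 4 were higher and 4 lower, and edgeR called 0, with a median log2 fold change of 0.059 that turned to -0.055 with the library size alone and was 0.035 without control replicate 3. With at least 10 counts required in every sample, which left out miR-223-3p and miR-150-5p, 2 were higher and 4 lower (median -0.17). In the main fit an unadjusted p under 0.05 was found for 2 of the 8, both lower, beside 50 of 552 miRNAs tested (9.06%). These were miR-142-3p of blood cells (log2 fold change -0.50) and miR-199a-5p of mesenchymal cells (log2 fold change -0.47). For miR-199a-5p the unadjusted p was 0.0488 with edgeR, 0.0908 with DESeq2 and 0.158 in edgeR without control replicate 2. The list had 1 such miRNA with DESeq2 and 0 in edgeR without control replicate 2. Among the other mesenchymal markers tested, miR-145-5p (-0.30) and miR-143-3p (-0.023) were lower and miR-199a-3p, from the opposite arm of miR-199a, was higher (0.14). The value of miR-145-5p ranged from -0.45 without control replicate 3 to -0.10 without control replicate 1. That of miR-143-3p turned to 0.032 without overexpression replicate 1. With the library size alone miR-143-3p was at -0.14 and miR-199a-3p at 0.029. Of the other blood markers tested, miR-223-3p was higher by 0.45 on the log2 scale, which ranged from 0.10 without control replicate 2 to 1.20 without control replicate 1, and miR-150-5p by 0.46, which ranged from 0.25 without control replicate 2 to 0.75 without control replicate 3. When control replicate 3 was left out, edgeR called miR-142-3p (log2 fold change -0.57, adjusted p = 0.0181, beside adjusted p = 0.314 with all samples and 0.0181 to 0.847 over all 15 alternatives). The sum of the 11 was 3405, 3377 and 3326 TPM with hsa_circ_0098181, against 3307, 3315 and 3209 TPM with the control plasmid, with every overexpression sample above every control sample. Most of this sum was the endothelial miR-126-3p, at a mean of 3180 TPM and so above miR-200a-3p. Its log2 fold change came to 0.16 (standard error 0.081, edgeR quasi-likelihood, adjusted p = 0.562). It was 0.097 without control replicate 3 and 0.049 with the library size alone. None of the 11 was at 0 in all samples, and the lowest were miR-214-3p of mesenchymal cells with 0 to 2 counts per sample, miR-142-5p of blood cells with 1 to 4 and miR-451a of red blood cells with 5 to 10. The mesenchymal miR-143-3p had a mean of 86.0 TPM. The part of these markers in the values of the miR-200 family was not tested. Of 5 miRNAs known to go with the loss of the epithelial state (miR-10b-5p, miR-9-5p, miR-155-5p, miR-221-3p and miR-222-3p), 4 passed the filter, with 3 higher and 1 lower, a median log2 fold change of 0.094 and 0 calls by edgeR (0 at an unadjusted p under 0.05), and with the library size alone 1 was higher and 3 were lower (median -0.023). All 4 were higher without control replicate 3 (median 0.13), and without control replicate 2 there were 2 higher and 2 lower (median 0.0037). miR-221-3p was the most abundant of them, at a mean of 1595 TPM.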

How the data were processed

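Total RNA of 6 Huh7 samples was sequenced for miRNAs, and samples were grouped by their titles. The authors deposited counts of reads per mature miRNA, without normalization, and TPM values, which equal counts scaled to CPM by the sample's total to within 0.00303. The submitters' processing notes name TopHat2 2.0.9, Bowtie and the build hg38. Which miRNA annotation was used, and what was done with multi-matching reads, is not given in the sources used here.

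Counts were fitted over the whole table with R 4.3.3 and edgeR 4.0.16 (filterByExpr with a minimum count of 10 and a minimum total of 15, TMM factors, two-sided quasi-likelihood test on the group alone, Benjamini-Hochberg adjustment, threshold 0.05). The test was first tried on simulated counts, with changes larger than those of the members and no library standing apart. This trial does not show how the test does on differences as small as those of the members. Standard errors for edgeR were derived from the log2 fold change and the F statistic of its test, and confidence intervals from these with the t distribution. Arm ratios were compared by exact permutation tests with 0.5 added to each count. No library repeated another, as the chi-square per degree of freedom between libraries of a group was 17.6 to 162. The fit was repeated with DESeq2 1.42.0, with limma 3.58.1 (log2 CPM, pseudocount 1 or 0.1), with upper-quartile factors, with the library size alone or less the most abundant miRNA, without the filter or with at least 10 counts required in all samples, with a replicate block, and without each sample in turn. Arm ratios were also computed with 5 added. Named were all members, the other products of their clusters, miRNAs with a member's seed, the 5 most like miR-200a-3p and the listed miRNAs of hepatocytes, epithelia, other cells and the loss of the epithelial state. The members and lists were chosen with earlier results of these data known. Sequences and positions came from RefSeq (GRCh38.p14) and GENCODE release 29.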

Additional observations from a re-analysis of the deposited data

How the results depend on the processing

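No member had an adjusted p under 0.05 under any alternative run, and miR-200a-3p (-0.20 to -0.057), miR-200c-3p (-0.25 to -0.086) and miR-141-3p (-0.16 to -0.0035) were lower in the overexpression group under all 15. Scaling by library size alone gave 3 calls (adjusted p under 0.05) among all miRNAs, all lower. All 7 members were then lower, with a median log2 fold change of -0.16, and miR-200b-3p (-0.082), miR-429 (-0.090) and miR-200a-5p (-0.036) turned. Without the most abundant miRNA in the library size, the median was -0.12 and miR-200b-3p (-0.045) and miR-429 (-0.053) turned. Both came with a lower median of all miRNAs tested, -0.11 and -0.075. Without a filter there were 6 calls, and the cause was not tested.

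Leaving out each sample in turn gave 0 to 56 calls among all miRNAs, the 56 without control replicate 3. The median of the members was -0.065 to -0.0035, the latter without control replicate 2. miR-429 was between -0.051 and 0.057 and miR-200b-5p between -0.22 and 0.030, each turning without control replicate 3, and the cause was not tested. The difference of the log2 arm ratio was -0.27 to -0.088 for miR-200a and 0.0099 to 0.25 for miR-200b.

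Samples with the same replicate number did not all deviate together, with correlations of -0.025, 0.15 and 0.24 over 152 abundant miRNAs and 3 of 6 samples closest to their own number, and the numbers were not taken as a pairing. With the replicate block there were 0 calls (42 at an unadjusted p under 0.05), 0 of them members, 4 members were lower and the median was -0.042. The paired arm differences, -0.17 for miR-200a and 0.15 for miR-200b, equal the unpaired ones by construction. Their exact sign-flip tests gave p = 0.5 and p = 0.75. The opposite arms among the members had 99 to 173 counts per sample, and the part of depth in their wider errors was not tested.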
